A study of Homo sapiens with 24 samples.

Results

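Untreated U2932 and OCI-Ly7 cells were compared through their 12 solvent control arrays, which are 12 of the 24 Illumina bead arrays of the series. The members were chosen by title: the U2932 arrays and the OCI-Ly7 arrays labelled DMSO, with 3 arrays each at 8 h and at 24 h, so 6 arrays per line. The other 12 arrays hold the same lines exposed to trabectedin, a DNA-binding chemotherapy drug. Both lines are established human diffuse large B cell lymphoma lines, each derived from a single patient. In this comparison every cell received DMSO, the solvent of the drug, so no group is entirely without additive, and neither the DMSO concentration nor the cell density is given in the sources used here. Nothing in the labels ties replicates to cultures grown apart. A p-value therefore measures the spread between these arrays alone, which may be technical.

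Diffuse large B cell lymphoma is divided by gene expression into an activated B cell-like and a germinal centre B cell-like subtype. Activated B cell-like tumours resemble B cells on their way to plasma cells and often depend on chronic B cell receptor signalling and on NF-kB, a transcription factor family downstream of that receptor. Germinal centre B cell-like tumours resemble the dividing B cells of lymphoid follicles and often carry rearrangements of BCL2 or altered chromatin regulators. U2932 is usually assigned to the first subtype and OCI-Ly7 to the second. Each subtype is represented by 1 line here, so a difference is one between 2 lines and not between subtypes.

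Signal was measured as probe intensity, corrected for background, quantile normalised over the 12 arrays and expressed as log2 intensity. A gene was tested if its probe was detected on at least 3 of the 12 arrays, which held for 9527 genes. A probe counted as detected when fewer than 1 in 100 of 695 probes for silent gene families, such as olfactory receptors, were as bright on the same array (detection p under 0.01). Differences are U2932 minus OCI-Ly7 on the log2 scale, averaged over both times, with the standard error from limma (n = 6 arrays per line). A gene was called at a Benjamini-Hochberg adjusted p under 0.05 together with a log2 difference of at least 1 in size. Where a line was in the background on all 6 arrays, the fold is a lower bound against the dimmest detected signal, written as "at least". A line detected on only some of its arrays got no bound. The size of such a difference, given with its standard error, can rest partly on background. For each gene the 3 levels given per line are the lowest, the median and the highest of its 6 arrays.

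Each line lay on a slide of its own, so line, slide and slide position cannot be told apart in any difference below. U2932 arrays were brighter before normalisation, with a mean probe intensity of 520 to 556 against 270 to 422 in OCI-Ly7 (exact permutation p = 0.00216, two-sided, n = 6 per line). U2932 also had 14614.5 ± 440 detected probes per array against 13943 ± 575 (SD, n = 6; exact permutation p = 0.0455), a difference that had a p of 0.236 at a detection p under 0.05. Arrays of the same group correlated across tested genes at 0.969 to 0.998, arrays of the same line at different times at 0.952 to 0.992, and arrays of different lines at 0.851 to 0.875. The lowest correlation within a group involved the third 24 h array of OCI-Ly7, which was also the dimmest of the 12. Quantile normalisation gives all arrays the same distribution, so total RNA per cell was not measured, and fewer cells of a kind and less RNA per cell cannot be told apart in bulk RNA.

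Markers of the B lineage were present in both lines. Of 12 pan-B cell markers 10 were tested, 10 were detected on all 12 arrays, and 1 was called (10%, against 20.9% of all genes tested). CD79A and CD79B, the signalling chains of the B cell receptor, had levels of 11.82, 11.94 and 12.09 in U2932 against 12.18, 12.63 and 12.79 in OCI-Ly7, and of 12.65, 12.76 and 12.87 in U2932 against 12.58, 13.07 and 13.26 in OCI-Ly7. MS4A1, which encodes the antigen CD20, had levels of 10.24, 10.48 and 10.59 in U2932 against 9.41, 9.72 and 9.88 in OCI-Ly7. Differences were -0.62 ± 0.09 for CD79A and 0.77 ± 0.09 for MS4A1, and neither was called. Other probes of both genes pointed the other way, so no direction is read from them. CD22, an inhibitory B cell receptor, had levels of 7.18, 7.48 and 7.67 in U2932 against 7.76, 8.31 and 9.70 in OCI-Ly7, without overlap. It was the 1 called member, with a difference of -1.02 ± 0.19 (adjusted p = 0.000284).

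Most genes that mark other cell types were below the detection filter. Only 4 of 25 T and NK cell markers, 3 of 15 myeloid markers and 3 of 20 erythroid, stromal and epithelial markers were tested. CD3D, CD3E, CD3G and CD8A of T cells, LYZ and MPO of myeloid cells and the haemoglobin genes listed were all below the filter. All 4 tested T and NK cell markers were called, against 20.9% of all genes tested. Of these 4, 2 were detected in OCI-Ly7 only and passed the filter only through that line. LCK, a tyrosine kinase best known from T cells, was lower in U2932 with a difference of -1.93 ± 0.09, and CD28, a T cell co-stimulatory receptor, was at least 2.72-fold lower. CD247, the zeta chain of the T cell receptor complex, was higher at 1.14 ± 0.07, and IL7R lower as given below. AIF1, a calcium-binding protein of macrophages, had levels of 5.56, 5.98 and 6.23 in U2932 against 9.73, 9.99 and 10.54 in OCI-Ly7 and a difference of -4.12 ± 0.14. EPCAM, an epithelial adhesion molecule, was at 10.76, 10.99 and 11.18 in U2932 against 4.67, 4.87 and 5.11 in OCI-Ly7. The myeloid markers CD68 and CD14 and the stromal marker VIM were tested too and not called. For CD68 the lowest level was 8.94 in U2932 and 8.77 in OCI-Ly7, and for VIM 7.94 and 7.7, so both had signal in both lines. CD14 was dimmer, with a lowest level of 5.97 in U2932 and 4.89 in OCI-Ly7.

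Over all genes tested, 1010 were higher in U2932 (10.6%) and 981 lower (10.3%), together 20.9% of the 9527. An adjusted p under 0.05 alone was reached by 6904 genes (72.5%). On scaling each array by its median in place of quantile normalisation, the median difference of all genes was 0.765 and the split was 3416 higher against 391 lower, so the balance of directions depends on the scaling. For 4368 genes (45.8%) no U2932 array overlapped any OCI-Ly7 array. In 706 of the called genes the dimmer line was in the background on all 6 arrays. Among the 7227 genes detected on all 12 arrays, 1019 (14.1%) were called, 443 higher and 576 lower.

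The 12 genes with the highest difference were in the background throughout OCI-Ly7. CDH2, which encodes the neural adhesion molecule N-cadherin, had levels of 12.81, 12.93 and 13.04 in U2932 against 4.62, 4.73 and 4.82 in OCI-Ly7. It was at least 134-fold higher in U2932 (adjusted p = 7.41e-18). PDLIM3, a protein of the actin cytoskeleton, had levels of 11.50, 11.65 and 11.84 in U2932 against 4.68, 4.82 and 4.93 in OCI-Ly7 and was at least 56.1-fold higher. RRAS2, a small GTPase of the RAS family, was at least 32.2-fold higher, and the adhesion molecule EPCAM at least 34.9-fold. The creatine pathway was represented by a pair of enzymes: GATM, which makes the creatine precursor, was at least 28.7-fold higher and the creatine kinase CKB at least 29-fold. SGPP2, a phosphatase of sphingosine 1-phosphate, and IGF2BP2, an RNA-binding protein, were at least 21.5-fold and at least 26.6-fold higher, and PBDC1 had levels of 10.07, 10.17 and 10.38 in U2932 against 4.51, 4.56 and 4.60 in OCI-Ly7. The remaining members of this group of 12, namely BCL2, SERPINA9 and CD44, belong to gene groups described below.

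At the other end, CD24 was in the background throughout U2932. CD24 is a small glycoprotein of the B cell surface, and its levels were 4.74, 4.82 and 4.95 in U2932 against 12.52, 12.77 and 12.87 in OCI-Ly7. It was at least 128-fold lower in U2932 (adjusted p = 3.37e-17). GTSF1, a factor of the small RNA pathway that silences transposons in germ cells, was at least 38.5-fold lower, with levels of 4.78, 4.91 and 5.16 in U2932 against 10.88, 10.99 and 11.08 in OCI-Ly7. NUDT11, an enzyme that removes phosphates from inositol pyrophosphates, and MILR1, an immunoglobulin-like receptor, were at least 24.2-fold and at least 19.6-fold lower. BMP7, a secreted signal of the bone morphogenetic protein family, was at least 31.2-fold lower, and its OCI-Ly7 arrays spread from 9.74 to 11.34. UBASH3B, a phosphatase that dampens antigen receptor signals, was at least 17.1-fold lower. The ion channel TRPM4, the cholesterol exporter ABCA1, the cytochrome CYB5A, the actin regulator INF2 and NREP were at least 18.4-fold, at least 14.4-fold, at least 13.4-fold, at least 13.3-fold and at least 14.6-fold lower. MX1, an antiviral GTPase induced by interferon, completed the 12.

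**Figure D1:**
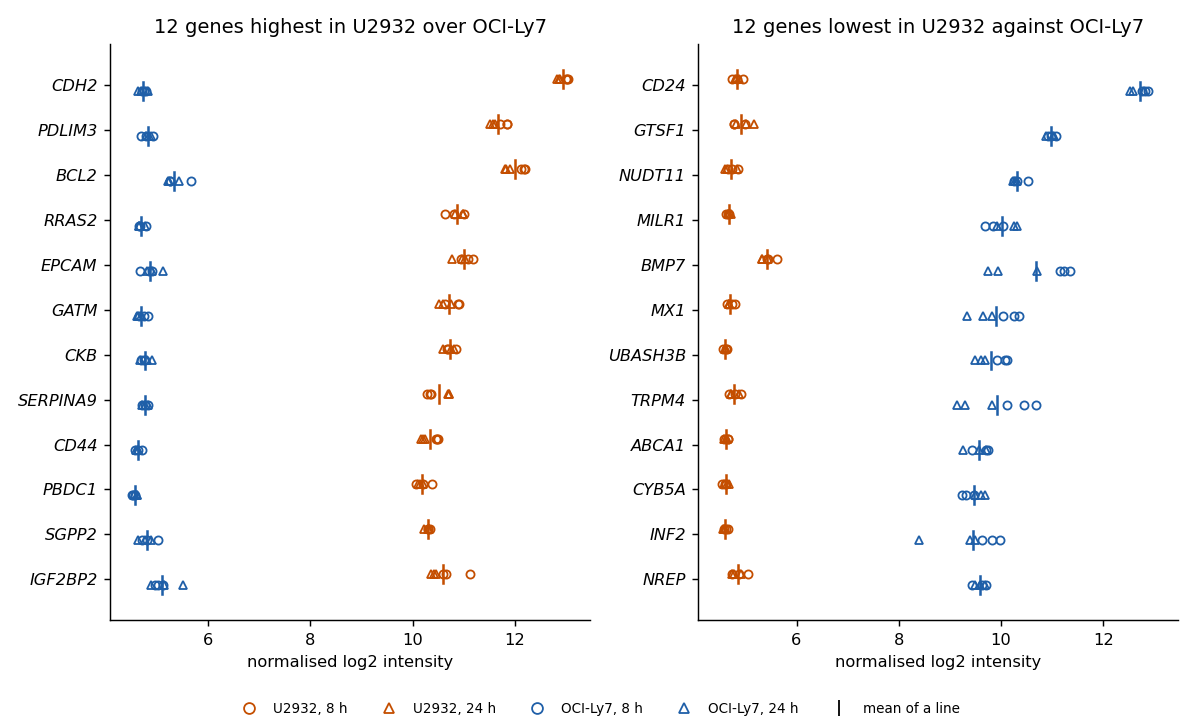
Normalised log2 intensity of each of the 12 arrays for the 12 genes highest and the 12 genes lowest in U2932 (circles 8 h, triangles 24 h, vertical ticks the mean of a line). No U2932 array overlaps an OCI-Ly7 array for any of the 24 genes.

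The clinical assay that assigns a lymphoma to a subtype reads 8 activated B cell-like genes, 7 germinal centre B cell-like genes and 5 reference genes. Of these, 7, 5 and 5 were tested. Among activated B cell-like genes 3 were higher in U2932 and none lower (42.9% called, against 20.9% of all genes tested). Their median difference was 0.94 against 0.03 for all genes tested. CYB5R2, a cytochrome reductase, had levels of 9.63, 9.71 and 9.82 in U2932 against 4.62, 5.02 and 5.08 in OCI-Ly7 and was at least 14.5-fold higher in U2932. TNFRSF13B, which encodes the receptor TACI for B cell survival factors, had levels of 10.16, 10.50 and 10.85 in U2932, against a lowest level of 6.72 and a mean of 7.02 in OCI-Ly7, and a difference of 3.48 ± 0.07 (adjusted p = 6.67e-14). RAB29, a GTPase of membrane traffic, differed by 1.29 ± 0.13. Those 3 genes had no overlap between the arrays of the lines.

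IRF4, a transcription factor that activated B cells and plasma cells need, had levels of 9.51, 9.75 and 9.84 in U2932 against 8.72, 8.78 and 8.96 in OCI-Ly7. Its difference of 0.93 ± 0.07 passed the adjusted p (adjusted p = 2.8e-08) but not the size, so it was not called, although its arrays did not overlap. CCDC50, at 0.94 ± 0.09, was not called either, without overlap. CREB3L2 and the kinase PIM2 differed by 0.27 ± 0.08 and -0.34 ± 0.10, with overlapping arrays.

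The germinal centre B cell-like genes of the assay went both ways, with 2 higher and 2 lower of 5 (80%). SERPINA9, a protease inhibitor of germinal centre B cells also called centerin, had levels of 10.28, 10.52 and 10.70 in U2932 against 4.71, 4.77 and 4.83 in OCI-Ly7, and was at least 25-fold higher in the line usually assigned to the other subtype. ITPKB, a kinase of inositol trisphosphate, was also higher in U2932, at 1.66 ± 0.08. MME, which encodes the surface peptidase CD10, had levels of 7.68, 8.21 and 8.57 in U2932 against 9.93, 10.04 and 10.15 in OCI-Ly7 and a difference of -1.86 ± 0.07. MYBL1, a transcription factor of germinal centre cells, was lower in U2932 with -1.30 ± 0.11. ASB13 was not called at 0.70 ± 0.10. Of the 5 reference genes limma called 0, with 3 at an unadjusted p under 0.05. Their differences ran from -0.98 for R3HDM1 to 0.49 for WDR55, with a median of -0.02.

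**Figure D2:**
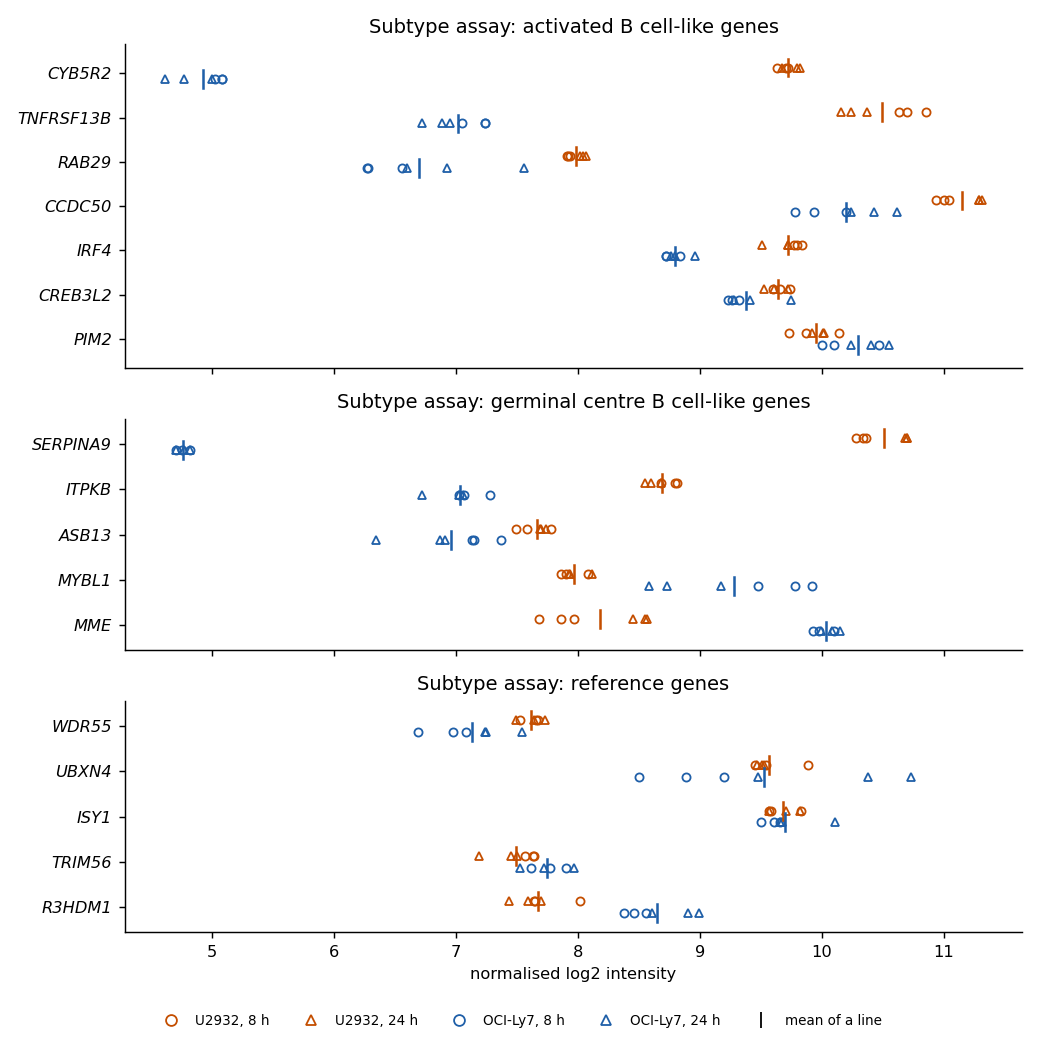
Normalised log2 intensity of each array for the tested genes of the subtype assay, by gene class (circles 8 h, triangles 24 h, vertical ticks the mean of a line). SERPINA9, a germinal centre B cell-like gene, is at 10.28 to 10.70 in U2932 and at 4.71 to 4.83 in OCI-Ly7.

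Further subtype markers outside the assay were also mixed. Of 17 tested activated B cell-like markers 6 were higher in U2932 and 2 lower (47.1%, median 0.62, with 4 of the 17 detected in U2932 only). BCL2 and the adhesion receptor CD44 led them, CD44 with levels of 10.16, 10.35 and 10.49 in U2932 against 4.57, 4.63 and 4.70 in OCI-Ly7, which made it at least 22.2-fold higher. BATF, an AP-1 family factor induced by activation, was at least 3.58-fold higher, and the kinase PIM1 differed by 1.05 ± 0.12. STAT3 and SPIB were not called at 0.59 ± 0.12 and 0.50 ± 0.15. FOXP1, a repressor often raised in this subtype, stood at 0.62 ± 0.09 by its brightest probe, whereas another of its probes read -1.01, so its direction depends on the probe. The secreted cytokine IL10 was not called, at -0.29 ± 0.08. FUT8, a fucosyltransferase, and the repressor ETV6 were lower in U2932, at -1.16 ± 0.15 and -1.21 ± 0.08.

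Of 19 tested germinal centre B cell-like markers 4 were higher and 4 lower in U2932 (42.1%). LMO2, a transcriptional adaptor of germinal centre cells, was in the background in OCI-Ly7 and at least 3.35-fold higher in U2932, with levels of 7.38, 7.63 and 7.81 in U2932 against 4.65, 4.76 and 4.95 in OCI-Ly7. ELL3, NEK6 and SYBU were higher by 1.12 to 1.87 on the log2 scale. STX7, GCSAM, an adaptor that restrains germinal centre cell movement, STAP1 and SSBP2 were lower, at -2.18 ± 0.09, -1.91 ± 0.09, -1.45 ± 0.13 and -1.12 ± 0.07. BCL6, the master repressor of the germinal centre programme, had levels of 11.58, 11.62 and 11.66 in U2932 against 11.46, 11.82 and 12.15 in OCI-Ly7 and was not called (-0.22 ± 0.10). Its arrays overlapped.

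Transcription factors that guide B cells towards the memory or plasma cell fate differed in both directions, with 7 of 29 tested higher and 5 lower in U2932 (41.4%), 3 of the 29 being detected in U2932 only and 1 in OCI-Ly7 only. ZBTB20, TCF4 and MEF2C were higher, at 2.92 ± 0.08, 2.38 ± 0.09 and 2.35 ± 0.08. The OCI-Ly7 arrays of ZBTB20 ran from 5.1 to 5.91, near the background, so its size is uncertain. PRDM1, the repressor BLIMP1 that installs the plasma cell programme, was in the background in OCI-Ly7 and at least 1.98-fold higher in U2932, with levels of 6.54, 6.85 and 7.16 in U2932 against 4.93, 5.38 and 5.74 in OCI-Ly7. BACH2, a repressor that opposes PRDM1, was lower at -2.15 ± 0.07. KLF2, which holds lymphocytes quiescent, had levels of 5.51, 5.68 and 5.92 in U2932 against 7.84, 8.65 and 9.65 in OCI-Ly7 and a difference of -2.98 ± 0.14. Its U2932 levels lay near the background, so this size is uncertain too. ID3, an inhibitor of E proteins such as the TCF4 product, was lower at -2.17 ± 0.08, and FOXO1 at -1.18 ± 0.07.

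Genes of plasma cell differentiation were split, with 4 of 15 higher in U2932 and 2 lower (40%), 2 of the 15 being detected in U2932 only. TNFRSF17, the receptor BCMA of plasma cells, had levels of 12.49, 12.59 and 12.63 in U2932 against 9.27, 9.51 and 10.23 in OCI-Ly7 and a difference of 2.99 ± 0.12. SEC11C, a subunit of the signal peptidase, was higher at 1.93 ± 0.07, and ELL2, an elongation factor for immunoglobulin transcripts, was at least 1.26-fold higher. The secretory factor XBP1 was not called (-0.10 ± 0.08). MZB1, a chaperone of immunoglobulin assembly, and SDC1, the plasma cell antigen CD138, were lower in U2932, at -1.94 ± 0.07 and -1.17 ± 0.09. VPREB3, which binds nascent immunoglobulin chains, was lower at -1.58 ± 0.07, while JCHAIN, the joining chain of secreted antibodies, was not called at -0.95 ± 0.09. Of 18 listed immunoglobulin and surrogate light chain genes 3 were tested, and VPREB3 was the 1 called.

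Of 32 tested B cell receptor signalling genes 9 were lower in U2932 and 2 higher (34.4%, median -0.22), whereas under median scaling 4 were lower and 7 higher. That scaling called 40% of all genes, 391 lower and 3416 higher. CD72, an inhibitory co-receptor, was in the background in U2932 and at least 3.62-fold lower. CR2, the complement receptor CD21, had levels of 5.69, 5.98 and 6.28 in U2932 against 7.68, 8.02 and 8.51 in OCI-Ly7 and a difference of -2.02 ± 0.11. The SRC family kinases FGR and LCK were lower at -2.07 ± 0.06 and -1.93 ± 0.09. BTK, the kinase targeted by ibrutinib, and PTPRC, the phosphatase CD45, chosen after their values were seen, were lower at -1.04 ± 0.07 and -1.21 ± 0.12. RASGRP3, which links the receptor to RAS, had levels of 10.47, 10.54 and 10.62 in U2932 against 7.51, 7.93 and 8.30 in OCI-Ly7 and a difference of 2.65 ± 0.07 (adjusted p = 1.07e-12). The adaptor BANK1 was in the background in OCI-Ly7 and at least 1.04-fold higher in U2932, a bound close to 1.

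Of 37 tested NF-kB factors and targets 13 were higher in U2932 and 1 lower, a called share of 37.8% against 20.9% for all genes. The median difference was 0.85, or 0.55 with genes in the background in 1 line set to their bound. Of the 37, 8 were detected in U2932 only, so they passed the filter only through the line where they were higher. Among the 26 detected on all 12 arrays 6 were higher and 1 lower with a median of 0.50. For all 7227 genes detected on all 12 arrays, 14.1% were called, 443 higher and 576 lower. Under median scaling 24 were higher and none lower, but that scaling called 40% of all genes, 3416 higher and 391 lower. The secreted cytokine TNF had levels of 10.27, 10.38 and 10.50 in U2932 against 5.36, 6.36 and 6.62 in OCI-Ly7 and a difference of 4.13 ± 0.15 (adjusted p = 1.36e-11). CD83, a marker of activated B cells and dendritic cells, had levels of 11.44, 11.56 and 11.58 in U2932 against 8.62, 9.03 and 9.37 in OCI-Ly7 and a difference of 2.54 ± 0.09. LTA, the lymphotoxin next to TNF on chromosome 6, was higher at 1.95 ± 0.15. RGS1, a brake on chemokine receptor signals, was at least 2.97-fold higher. The chemokines CCL22 and CCL3 were at least 1.54-fold and at least 1.35-fold higher.

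LTB, the third gene of the TNF cluster, went the other way, with levels of 10.30, 10.47 and 10.68 in U2932 against 11.07, 11.65 and 12.39 in OCI-Ly7 and a difference of -1.16 ± 0.11. The family members themselves were not called: chosen after their values were seen, NFKB1 differed by 0.42 ± 0.09, NFKB2 by 0.07 ± 0.15, REL by -0.32 ± 0.13, RELA by 0.22 ± 0.10 and RELB by 0.85 ± 0.10. Other probes of NFKB2 and REL pointed the other way. The feedback inhibitors NFKBIA and TNFAIP3 were not called either, at -0.26 ± 0.11 and 0.05 ± 0.08. NFKBIZ and NFKBID, nuclear members of the same inhibitor family, were higher at 1.90 ± 0.08 and 1.70 ± 0.11. TRAF3, an adaptor through which the kinase of the alternative pathway is degraded, was at least 1.73-fold higher. These 5 genes were also chosen after their values were seen.

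Stretches of promoters are shown for 5 members of this list to let the NF-kB motif be seen in genes that were higher, lower or not called. They are RefSeq sequences of GRCh38.p14, 60 bases each, read 5′ to 3′ on the strand of the gene. Capitals mark each match, on either strand, to GGG, any 2 bases, TT, any base and CC, and matches may overlap. NFKBIZ lies on the plus strand at chr3:101827742-101827801, CD83 on the plus strand at chr6:14117672-14117731, TRAF3 on the plus strand at chr14:102777389-102777448, NFKBIA on the minus strand at chr14:35404796-35404855 and LTB on the minus strand at chr6:31582477-31582536.
NFKBIZ: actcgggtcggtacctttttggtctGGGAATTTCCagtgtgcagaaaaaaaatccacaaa
CD83: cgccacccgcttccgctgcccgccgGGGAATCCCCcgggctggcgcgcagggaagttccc
TRAF3: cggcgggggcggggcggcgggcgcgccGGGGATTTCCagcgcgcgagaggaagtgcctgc
NFKBIA: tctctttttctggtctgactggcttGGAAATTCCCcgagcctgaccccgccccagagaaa
LTB: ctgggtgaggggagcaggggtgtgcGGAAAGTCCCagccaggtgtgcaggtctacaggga

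The motif was found in the 250 bases before a start in 5.07% of all 35116 promoters. Of the list's members with a promoter in the table, it was found in 5 of 13 that were higher in U2932, in 1 of 1 that was lower, and in 6 of 18 that were not called. A member can have several promoters and counted if any of them held the motif, so these counts and the share per promoter differ in unit. The match is a description of letters and says nothing on binding in these cells.

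Interferon response genes are switched on by the cytokine interferon and act against viruses. Of 38 listed genes 21 were tested, and 10 were lower in U2932 and 1 higher, a called share of 52.4%. The median difference was -0.68. Of the 21, 4 were detected in OCI-Ly7 only, and among the 12 detected on all 12 arrays 6 were lower and none higher. Among all 7227 genes detected on all 12 arrays, 14.1% were called, 576 lower and 443 higher. Under median scaling 7 were lower and 3 higher, where 391 of all genes were lower and 3416 higher (40% called). MX1 had levels of 4.64, 4.69 and 4.80 in U2932 against 9.33, 9.93 and 10.35 in OCI-Ly7 and was at least 18.3-fold lower. OAS1 and OAS2, sensors of double-stranded RNA that activate RNase L, were lower at -2.97 ± 0.07 and -3.30 ± 0.08, and the antiviral factor TRIM22 was at least 4.96-fold lower. OAS1 levels were 6.05, 6.21 and 6.39 in U2932 against 8.98, 9.19 and 9.34 in OCI-Ly7, so every OCI-Ly7 array was above every U2932 array.

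The 1 higher member was MX2, which lies beside MX1 on chromosome 21 and encodes a related GTPase. MX2 had levels of 8.65, 8.79 and 8.98 in U2932 against 5.39, 5.75 and 6.07 in OCI-Ly7 and a difference of 3.08 ± 0.10, opposite to that of MX1. Other members, chosen after their values were seen, were lower too: ISG15, a ubiquitin-like modifier, had a difference of -2.70 ± 0.09, the exonuclease ISG20 of -2.12 ± 0.08 and the virus tether BST2 of -1.65 ± 0.09, and IFITM1 was at least 4.86-fold lower. The RNA sensor IFIH1 was lower at -1.45 ± 0.08. The interferon-activated factors IRF1, IRF7 and IRF9, chosen in the same way, were not called, at 0.06 ± 0.29, 0.22 ± 0.12 and 0.51 ± 0.07. Of the receptor chains, IFNAR2 was lower in U2932 with levels of 7.63, 7.96 and 8.15 in U2932 against 9.53, 9.87 and 10.11 in OCI-Ly7 and a difference of -1.94 ± 0.08, and IFNAR1 and IFNGR1, also chosen afterwards, were lower at -1.04 ± 0.10 and -1.66 ± 0.11.

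Promoter stretches of 6 interferon response genes, 4 of them lower in U2932 and 2 not called, show the sequence that interferon-activated factors are known to bind. OAS3 and IFI6 were chosen after their values were seen. Capitals mark matches to GAAA, any 2 bases and GAAA on either strand, where matches may overlap and then run together. ISG15 lies on the plus strand at chr1:1013362-1013421, BST2 on the minus strand at chr19:17405723-17405782, ISG20 on the plus strand at chr15:88638922-88638981, IFIH1 on the minus strand at chr2:162318806-162318865, OAS3 on the plus strand at chr12:112938306-112938365 and IFI6 on the minus strand at chr1:27672294-27672353.
ISG15: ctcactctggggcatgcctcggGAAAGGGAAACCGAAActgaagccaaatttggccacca
BST2: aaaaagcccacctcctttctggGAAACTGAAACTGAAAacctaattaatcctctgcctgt
ISG20: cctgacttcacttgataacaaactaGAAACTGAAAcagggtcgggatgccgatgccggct
IFIH1: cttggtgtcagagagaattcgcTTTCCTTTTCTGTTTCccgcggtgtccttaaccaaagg
OAS3: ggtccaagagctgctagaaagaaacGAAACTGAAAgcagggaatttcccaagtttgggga
IFI6: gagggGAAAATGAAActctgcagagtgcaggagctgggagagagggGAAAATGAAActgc

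This motif was found in 3.02% of all promoters. Among list members with a promoter in the table it was found in 6 of 7 that were lower in U2932 and in 3 of 9 that were not called. These counts are again per gene, over any of its promoters, and not per promoter. OAS3 and IFI6 hold it in the stretches above, and their differences of -0.68 ± 0.12 and -0.24 ± 0.09 were not called. OAS1, which was lower, had no match in the 250 bases searched, which says only that these letters are not in that window.

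Cytokine receptor and JAK-STAT genes differed in both directions, with 5 of 26 higher and 6 lower (42.3%). IL7R, the receptor chain for a lymphocyte growth factor, was in the background in U2932 and at least 7.72-fold lower. IL2RA, the CD25 antigen, was at least 4.64-fold lower. The chains of the IL-10 receptor were opposed: IL10RA had levels of 8.68, 8.92 and 9.24 in U2932 against 6.44, 6.94 and 7.13 in OCI-Ly7 and a difference of 2.05 ± 0.08, while IL10RB had a difference of -1.78 ± 0.07. STAT4 was at least 2.29-fold higher, and JAK2 and STAT6 were higher at 1.46 ± 0.10 and 1.11 ± 0.10.

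Of 38 tested surface antigens and therapy targets 9 were higher and 11 lower in U2932 (52.6%), with 4 detected in U2932 only and 5 in OCI-Ly7 only. Besides CD44, TNFRSF13B and TNFRSF17, CD58, the ligand through which T and NK cells bind a target, was in the background in OCI-Ly7 and at least 6.05-fold higher in U2932, with levels of 8.13, 8.53 and 8.64 in U2932 against 4.80, 4.87 and 4.96 in OCI-Ly7. LY9, a SLAM family receptor, was at least 2.79-fold lower, and CD1D, which presents lipid antigens, was lower at -2.38 ± 0.09. Of 26 adhesion and homing receptors 4 were higher and 6 lower (38.5%), with 5 detected in U2932 only and 3 in OCI-Ly7 only. CXCR5, which guides B cells into follicles, had levels of 12.15, 12.37 and 12.44 in U2932 against 6.94, 7.33 and 7.75 in OCI-Ly7 and a difference of 5.02 ± 0.12 (adjusted p = 1.71e-13). GPR183, which draws B cells to the outer follicle, was at least 2.67-fold higher. PECAM1 and ADGRE5, the antigens CD31 and CD97, were at least 6.92-fold and at least 6.63-fold lower.

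Of 16 tested MHC class II genes 1 was called (6.25%), and the median difference was 0.01. HLA-DRA had levels of 12.95, 13.07 and 13.15 in U2932 against 12.94, 13.10 and 13.34 in OCI-Ly7, with overlapping ranges. CD74, the invariant chain, and the transactivator CIITA were not called at 0.53 ± 0.12 and -0.65 ± 0.14. The called member was HLA-DRB4 at 2.07 ± 0.11, a gene carried by only some haplotypes. HLA-DRB genes have near-identical copies, so its probe is uncertain. Of 21 tested class I and peptide-loading genes 3 were higher and 1 lower (19%, near the share of all genes). HLA-B had levels of 10.81, 10.85 and 10.94 in U2932 against 8.09, 8.59 and 9.25 in OCI-Ly7 and a difference of 2.24 ± 0.12, and HLA-C was at least 3.25-fold higher. B2M, the shared light chain, was not called (-0.04 ± 0.07). NLRC5, the class I transactivator, was at least 1.6-fold lower in U2932. HLA sequences vary between people, and how far each probe matches the alleles of each line was not tested. The brightest probe of the peptidase ERAP2 gave 0.17 ± 0.17, but its other probe read -2.13.

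The BCL2 family, which decides whether mitochondria release their death signals, differed in both directions: 6 of 19 tested members were higher in U2932 and 3 lower, or 47.4% against 20.9% for all genes, with a median of 0.85. Of the 6, 3 were detected in U2932 only, namely BCL2, BCL2A1 and BMF, and passed the filter only through the line where they were higher. Under median scaling 13 were higher and 3 lower, where 3416 of all genes were higher and 391 lower (40% called). BCL2 itself, the guardian that the drug venetoclax blocks, had levels of 11.81, 12.01 and 12.20 in U2932 against 5.21, 5.25 and 5.67 in OCI-Ly7 and was at least 70.7-fold higher in U2932. The size of its fitted difference, which is no bound, depended on the probe. Without the first 24 h array, the second 8 h array or the third 8 h array of OCI-Ly7, where another probe was the brightest, it moved from 6.67 to 7.30, 7.37 and 7.32. MCL1, another guardian, had levels of 11.96, 12.18 and 12.39 in U2932 against 9.22, 9.74 and 10.04 in OCI-Ly7 and a difference of 2.49 ± 0.08 (adjusted p = 2.7e-12). BCL2A1, a guardian induced by NF-kB, was at least 2.79-fold higher. The fourth guardian BCL2L1 was not called at 0.98 ± 0.17, although it was called without any 1 of 3 arrays, and BCL2L2 was lower at -1.77 ± 0.10. The U2932 arrays of BCL2L2 ran from 5.25 to 5.8, near the background, so its size is uncertain.

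Pro-death members were also found on both sides. PMAIP1, the NOXA protein that neutralises MCL1, had levels of 12.42, 12.51 and 12.58 in U2932 against 9.03, 9.35 and 9.57 in OCI-Ly7 and a difference of 3.19 ± 0.08. BMF was at least 3.34-fold higher and the pore former BAK1 was higher at 1.09 ± 0.14. HRK, a sensitiser that binds BCL2 and BCL2L1 products, had levels of 6.49, 6.62 and 6.75 in U2932 against 9.16, 9.55 and 9.84 in OCI-Ly7 and was lower in U2932 at -2.89 ± 0.10, and the mitophagy receptor BNIP3 was lower at -2.36 ± 0.12. BAX, BBC3 and BCL2L11, which encodes BIM, were not called, at -0.01 ± 0.13, 0.14 ± 0.08 and 0.71 ± 0.10, and another probe of BCL2L11 pointed the other way.

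**Figure D3:**
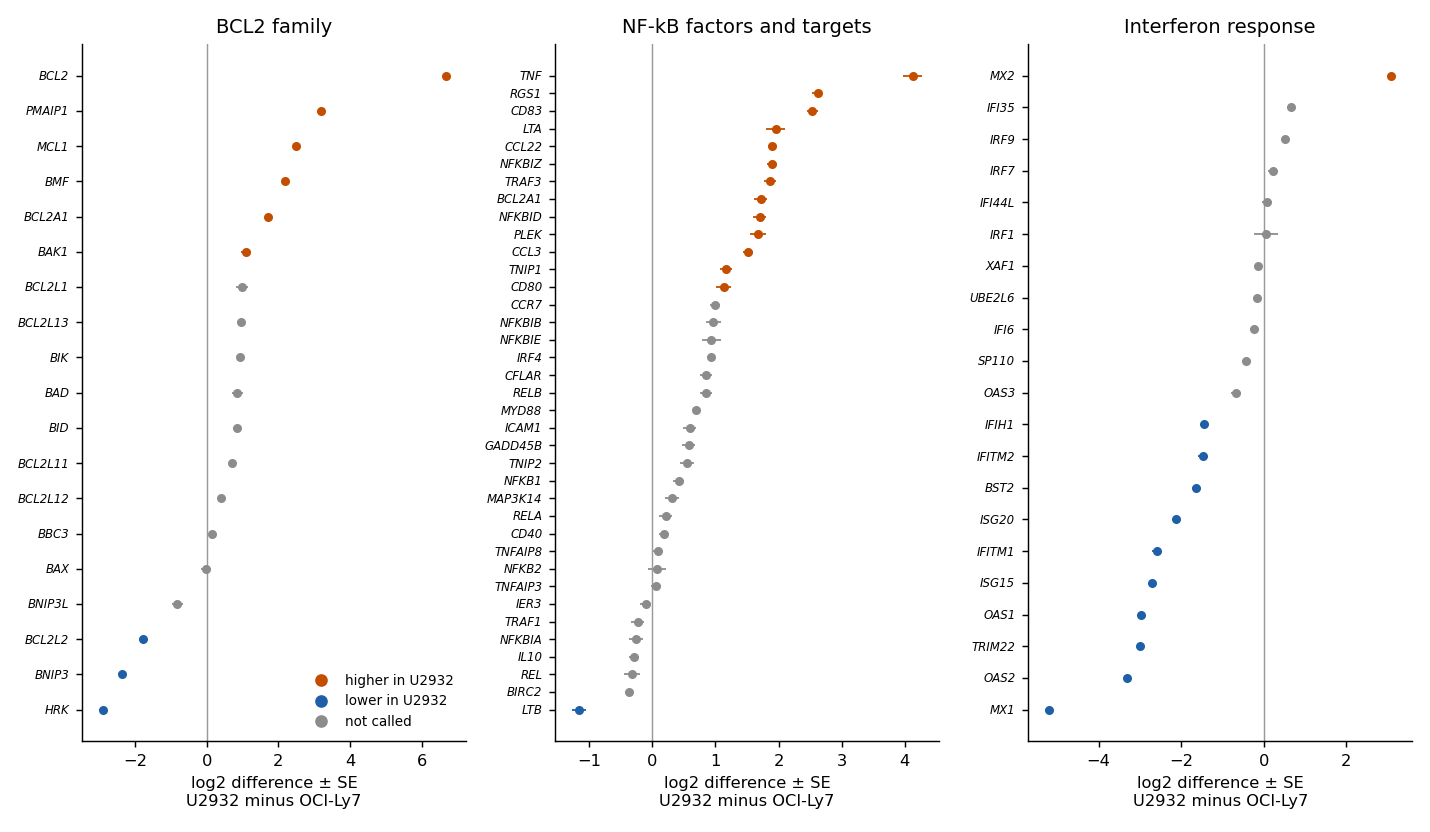
Log2 difference between the lines (U2932 minus OCI-Ly7, both times) with its standard error for the tested members of the BCL2 family, of NF-kB factors and targets and of interferon response genes, coloured by call. Members in the background in 1 line are drawn at fitted differences whose size is not measured. They are 3 of the BCL2 family, 8 of the NF-kB list and 4 of the interferon list, BCL2 and MX1 among them. MX2 stands apart from the other interferon response genes at 3.08.

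BCL2 and PMAIP1 lie in the same stretch of chromosome 18. When tested genes were ordered along each chromosome and taken in windows of 21 neighbours, the window from DYNAP to VPS4B had the highest median of 9049 windows, 2.71, where 90% of windows lay between -0.59 and 0.48. In that window 15 genes were higher in U2932, none was lower, and 20 of 21 differences were above 0. The window was found from these values, so its height is a description and not a test. Members besides BCL2 and PMAIP1 included NEDD4L, a ubiquitin ligase, with levels of 9.48, 9.64 and 9.76 in U2932 against 4.90, 5.20 and 5.49 in OCI-Ly7, which was at least 13.4-fold higher. PHLPP1, a phosphatase of AKT, was higher at 3.17 ± 0.11, KDSR, an enzyme of sphingolipid synthesis, at 2.98 ± 0.06, and PIGN, of the glycolipid anchor pathway, at 3.09 ± 0.07. ZNF532 and TXNL1 were higher at 2.78 ± 0.10 and 2.75 ± 0.09. MALT1, the protease that activates NF-kB, lies in the same window and, chosen after its value was seen, was not called, at 0.95 ± 0.08. DNA copy number was not measured.

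**Figure D4:**
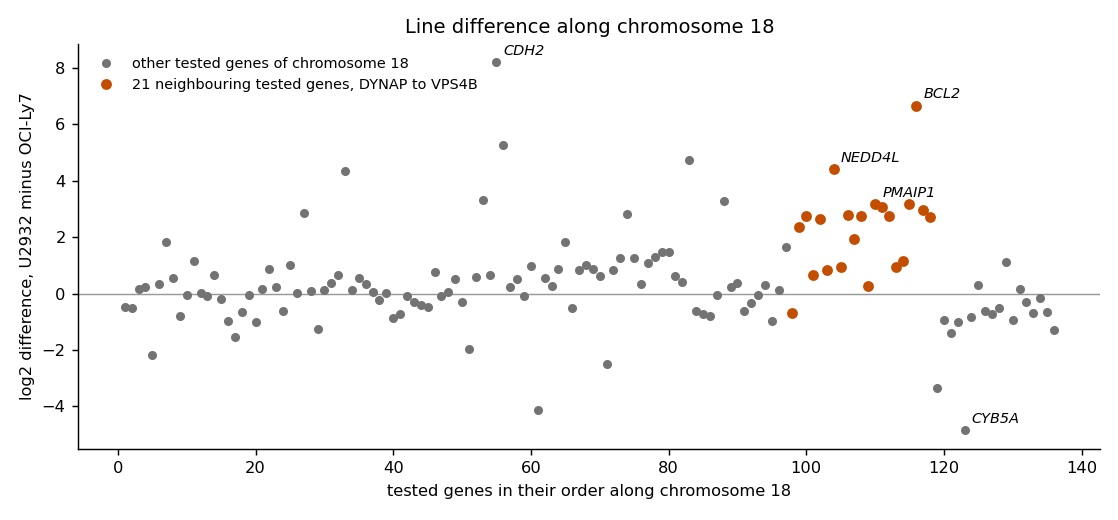
Log2 difference between the lines for the 136 tested genes of chromosome 18 in their order along it, with the window of 21 genes from DYNAP to VPS4B coloured. Of the 21 coloured genes 15 are called higher and none lower, with a median of 2.71, while CDH2 is high and CYB5A low outside the window. Where a line is in the background, as for BCL2, NEDD4L, CDH2 and CYB5A, the size drawn is not measured.

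Windows with smaller medians were found on other chromosomes. One on chromosome 1 from H3C13 to GOLPH3L had a median of 1.46, with 11 genes higher in U2932 and 4 lower, and held MCL1, together with the tRNA synthetase TARS2 at 2.43 ± 0.09 and the splicing factor PRPF3 at 2.51 ± 0.07. On chromosome 13 a window from PCCA to LAMP1 had a median of 1.32, with 12 genes higher and none lower, among them the carboxylase subunit PCCA at 2.62 ± 0.06 and BIVM at least 4.04-fold higher. At the low end, a window on chromosome 14 from LRR1 to ERO1A had a median of -1.07, with 11 of 21 genes lower and 1 higher, the lower ones including GNG2, a G protein subunit, at least 3.31-fold lower. A window on chromosome 10 from BBIP1 to DENND10 had a median of -1.05, with 11 lower and 1 higher, and included the actin-binding ABLIM1 at -1.90 ± 0.09. On chromosome 2, a window from IFIH1 to HAT1 had a median of -1.01, with 11 lower and 3 higher. Chromosome 10 as a whole had a median of -0.46 over 346 genes, 16 higher and 74 lower in U2932. Windows and chromosomes were not taken again under median scaling. The median of all genes was 0.765 under that scaling against 0.03 here, with 391 genes lower against 981. How far the low medians and lower counts depend on the scaling was therefore not tested.

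Of 20 tested G1 genes 3 were higher in U2932 and 4 lower (35%). CDKN1A, the inhibitor p21, had levels of 9.21, 9.36 and 9.47 in U2932 against 5.10, 5.49 and 5.95 in OCI-Ly7 and a difference of 3.84 ± 0.10 (adjusted p = 5.24e-13). Those OCI-Ly7 levels were close to the ones of PRDM1, which was in the background there, so the size is uncertain. CDKN2A, which encodes p16 and ARF, had levels of 9.70, 9.80 and 10.00 in U2932 against 7.66, 8.12 and 8.54 in OCI-Ly7 and a difference of 1.70 ± 0.08, and its neighbour CDKN2B was at least 1.76-fold higher. CCND3, the D-type cyclin of germinal centre B cells, had levels of 9.97, 10.14 and 10.23 in U2932 against 11.49, 12.57 and 12.81 in OCI-Ly7 and was lower in U2932 at -2.23 ± 0.12. The pocket protein gene RB1, the inhibitor CDKN2D and the transcription factor E2F2 were lower at -1.84 ± 0.09, -1.56 ± 0.11 and -1.08 ± 0.11. CDK4 and CDK6 were not called, at 0.50 ± 0.08 and 0.81 ± 0.14.

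MYC, the growth-promoting transcription factor, was lower in U2932. Its levels were 8.04, 8.21 and 8.50 in U2932 against 11.36, 11.57 and 11.65 in OCI-Ly7 and its difference -3.29 ± 0.07 (adjusted p = 9.91e-14), with a second probe at -4.50. The MYC antagonists MXD1 and MXD4 were higher, MXD1 by at least 3.35-fold and MXD4 at 2.97 ± 0.15. MAX, the partner of both, was not called at -0.25 ± 0.09. Of the MYC targets ODC1, CAD, NCL and LDHA none was called, with differences from -0.64 to 0.21. In the p53 pathway 3 of 17 tested genes were higher and 1 lower, and this share of 23.5% is near the 20.9% of all genes. Besides CDKN1A and PMAIP1, DDB2, which senses ultraviolet damage, was at least 2.98-fold higher. MDM4, an inhibitor of p53, was lower at -1.12 ± 0.08, and MDM2 was not called (-0.93 ± 0.08).

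Of 37 mitosis genes 6 were lower and none higher (16.2%), whereas under median scaling 1 was lower and 2 higher. The median of -0.62 became 0.15 under that scaling, which called 391 of all genes lower and 3416 higher. The checkpoint kinase BUB1 had levels of 8.49, 8.61 and 8.83 in U2932 against 10.54, 10.71 and 10.98 in OCI-Ly7 and a difference of -2.11 ± 0.08. KIF11, a spindle motor, and SPC25 and NUF2, parts of the kinetochore, were lower at -1.28 ± 0.07, -1.45 ± 0.09 and -1.10 ± 0.09. Of 40 replication genes 4 were lower (10%), including MCM6, a helicase subunit, at -1.26 ± 0.09. Called were 2.56% of 39 cytosolic ribosomal protein genes. Of 31 oxidative phosphorylation genes limma called 0, with 19 at an unadjusted p under 0.05. Of 27 glycolysis and hypoxia genes 6 were lower and 2 higher (29.6%), which became 3 lower and 5 higher under median scaling. PFKFB4, a regulator of glycolysis, and the aldolase ALDOC were lower at -2.83 ± 0.25 and -1.93 ± 0.16, while ADM, a peptide hormone induced by hypoxia, had levels of 11.32, 11.68 and 11.72 in U2932 against 6.74, 7.94 and 9.36 in OCI-Ly7 and was higher at 3.72 ± 0.21.

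Genes with a known bearing on trabectedin were compared in the untreated state. Trabectedin lesions are processed by nucleotide excision repair and by homologous recombination. Of 24 tested excision repair genes 2 were higher in U2932 and none lower, a share of 8.33% that is below the 20.9% of all genes. They were DDB2 and the transcription-coupled repair factor XAB2, the latter at 1.15 ± 0.16, with 1.88 at 8 h and 0.42 at 24 h. Of 24 tested homologous recombination and Fanconi anaemia genes limma called 0 for the average over both times, with 17 at an unadjusted p under 0.05 and a median difference of -0.18. At 8 h 1 of them was higher and 5 were lower, where 24.5% of all genes were called, and at 24 h 1 was higher and none lower. The line difference was unequal at the times for 5 of the 24. Drug transporter and glutathione genes had 7 of 17 higher and 1 lower (47.1%), with 4 of the 17 detected in U2932 only. The microsomal glutathione transferase MGST2 had levels of 8.90, 9.24 and 9.66 in U2932 against 4.82, 5.06 and 5.58 in OCI-Ly7 and was at least 10.5-fold higher, its relative MGST1 was higher at 2.20 ± 0.07, and MGST3 was lower at -1.51 ± 0.07. GPX4, which repairs lipid peroxides, had levels of 12.29, 12.45 and 12.48 in U2932 against 10.73, 11.07 and 11.72 in OCI-Ly7 and a difference of 1.26 ± 0.09. GSTT1 and GSTM2 were at least 2.65-fold and at least 2.12-fold higher, GSTM genes having near-identical copies. The efflux pump gene ABCB1 was below the detection filter.

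Of 17 tested chromatin regulators that are often mutated in lymphoma 3 were lower in U2932 and none higher (17.6%, near the share of all genes). CREBBP, an acetyltransferase, had levels of 8.46, 8.65 and 8.88 in U2932 against 9.47, 9.68 and 9.80 in OCI-Ly7 and a difference of -1.01 ± 0.07, SMARCA4, a remodeller, one of -1.15 ± 0.09, and TET1 was at least 1.4-fold lower. EZH2, the methyltransferase of germinal centre B cells, was not called at 0.73 ± 0.07. In the PI3K pathway 1 of 23 was higher, PHLPP1, and 5 were lower (26.1%). DEPTOR, an inhibitor of mTOR, was lower, with levels of 8.61, 8.90 and 9.18 in U2932 against 10.98, 11.10 and 11.43 in OCI-Ly7 and a difference of -2.24 ± 0.07.

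The lines were also compared at each time. The 8 h arrays gave 1196 higher genes (12.6%) and 1139 lower ones (12%), 24.5% together. The 24 h arrays gave 962 (10.1%) and 910 (9.55%), or 19.6%. Of these, 1558 genes were called the same way at both times and none in opposite ways, and the differences correlated across genes at 0.921, a value over genes that are not independent. A change of the line difference between times, tested by itself, was called for 928 genes (9.74%), 485 more positive (5.09%) and 443 more negative (4.65%) at 24 h. Under median scaling it was called for 6 and 54. The count depended on single arrays. Without the first 24 h array of OCI-Ly7 it was 1337 and 1155, and without any 1 of the 6 U2932 arrays it fell to between 138 and 206 and between 95 and 147. Without the first or the second 8 h array of OCI-Ly7 it was 176 and 142, or 234 and 192, and without the second 24 h array 273 and 191. Without the third 8 h array it was 646 and 694.

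LRRC32, which docks latent TGF-beta on the cell surface, was lower in U2932 at both times but less so at 24 h. Its line difference was -3.70 at 8 h and -1.63 at 24 h, a change of 2.07 ± 0.25. ZNF121 turned from -0.44 to 1.29, with a change of 1.74 ± 0.22, and SIL1, a chaperone exchange factor, from -1.19 to 0.52. CCDC106 and the sialyltransferase ST3GAL2 changed by 1.59 ± 0.33 and 1.56 ± 0.26. In the other direction DHCR7, the last enzyme of cholesterol synthesis, changed from 2.02 to 0.38, a shift of -1.64 ± 0.23, and the focal adhesion protein ZYX shifted by -1.66 ± 0.35. DDX59 and the probes for ribosomal RNA, RNA18SN5 and RNA28SN5, shifted by -1.83 ± 0.53, -2.36 ± 0.53 and -2.32 ± 0.49. For DDX59 the arrays of OCI-Ly7 read 6.05, 6.22 and 6.52 at 8 h and 7.19, 8.71 and 8.82 at 24 h.

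**Figure D5:**
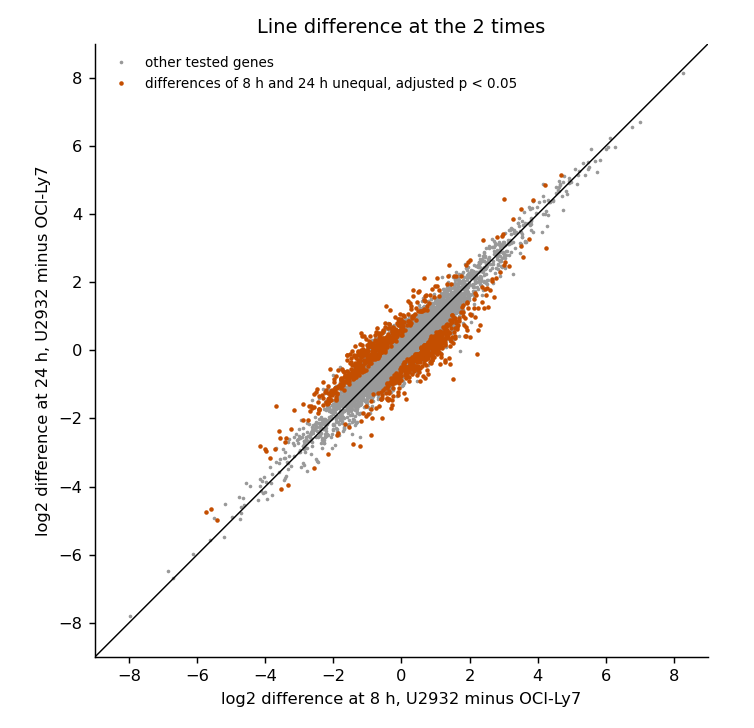
Log2 difference between the lines at 24 h against 8 h for each of the 9527 tested genes, with the line of equality. Genes whose differences at the times were unequal (928, coloured) lie to both sides of the line.

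The trabectedin arrays offered the same comparison of lines in samples that the choice above did not use, on the slide of U2932 and 2 slides of OCI-Ly7. A fit over all 24 arrays called 950 genes higher and 922 lower in the DMSO arrays (19.6%). At 8 h of trabectedin 557 of the 950 were again higher, 660 of the 922 again lower, and 3 opposite. Of all genes 22.8% were called then, 880 higher and 1296 lower. At 24 h 441 and 675 were called the same way and 42 opposite. Of all genes 39.2% were called there, 1348 higher and 2391 lower, so a lower call was the more common one. The 24 h trabectedin arrays of OCI-Ly7 were on a slide of their own. BCL2 was again detected on all U2932 arrays and on none of OCI-Ly7 at both times of the drug, and MX1 on all OCI-Ly7 arrays and on none of U2932. In that fit the difference of TNFRSF13B, detected on 1 of 3 OCI-Ly7 arrays at 8 h of the drug, was 3.19 ± 0.13 at 8 h and 0.50 ± 0.13 at 24 h against 3.63 in DMSO.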

How the data were processed

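Total RNA of U2932 and OCI-Ly7 cells was amplified to biotinylated cRNA and hybridised to Illumina bead arrays, per the labels' protocols. The authors deposited linear intensity values for 47231 probes without detection p-values, and a table of log2 values. The deposited log2 values equal quantile-normalised log2 intensities to within 4.99e-09, and every column has a median of 6.73. The probe table names 30113 probes with 1 symbol, 8 with several and 17110 with none. Only the first kind was used, and names were updated through RefSeq gene identifiers for 30074 probes.

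Background was modelled on 695 probes for silent gene families with limma 3.58.1 (function nec, offset 16) in R 4.3.3, followed by log2 and quantile normalisation over the 12 DMSO arrays. The filter required detection on at least 3 arrays at a p under 0.01 and left 12596 probes, and each gene is represented by its brightest probe. Of 2470 genes with several tested probes, 649 had one of opposite sign. The fit gave 1 mean per group of 3 arrays, and tests were two-sided. Bounds use the lowest signal among detected probes per array, or the probe's own where higher. Precision is limited by the number of arrays.

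Named genes are the 12 highest and 12 lowest called genes, members of the shorter lists, up to 4 called members at each end of longer lists, 5 at each end of the change between times, and up to 8 per window. The members and the 37 gene lists were chosen with earlier results of these data known. No pairing by replicate number was seen: same-number deviations correlated at -0.01 to 0.04 within U2932 and -0.05 to 0.09 within OCI-Ly7. Pairs of different numbers within OCI-Ly7 ran from -0.18 to 0.15, so these few pairs cannot exclude a pairing. Data were simulated for this comparison (3 sets, 9127 to 9325 genes), with 200 genes per set changed at random up or down on a baseline shared by the lines. Called were 0% of genes changed 1.5-fold, 37.7% of those changed 2-fold and 99.5% of those changed 4-fold. No unchanged gene was called, but 6.58% of genes past the adjusted p alone were unchanged. Far more genes differ between the lines than were changed there, so the simulation gives no rate of false calls for the data. Figures were drawn with matplotlib 3.10.9 in Python 3.11.15. Alternatives were background correction, offset, scaling, filters, probe choice, array weights, the replicate block, all 24 arrays and leaving out each array.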

Additional observations from a re-analysis of the deposited data

Results flagged for a closer look

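The line difference (U2932 minus OCI-Ly7, log2) at 24 h was unequal to that at 8 h, by a test of the difference itself in limma, for 38 of the named genes. Each value is the difference at 24 h minus that at 8 h, and 9.74% of all tested genes passed the same test.

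For 12 genes the test was passed with each of the 12 arrays left out in turn. More positive at 24 h were LRRC32 (2.07), ZNF121 (1.74), SIL1 (1.71), CCDC106 (1.59), ST3GAL2 (1.56), LTB (1.07), CD247 (0.90), OAS2 (0.84) and FGR (0.67). More negative at 24 h were ZYX (-1.66), DHCR7 (-1.64) and IL10RA (-0.86).

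The other 26 genes missed the threshold without at least 1 array, with the sign kept in all 12 fits. More positive at 24 h were ADM (1.44), KLF2 (1.21), LTA (1.14), BMP7 (0.99), TRPM4 (0.95), MYBL1 (0.95), CCND3 (0.92), IL2RA (0.71), MAX (0.62), MME (0.61) and UBASH3B (0.44). More negative at 24 h were RNA18SN5 (-2.36), RNA28SN5 (-2.32), DDX59 (-1.83), XAB2 (-1.46), BCL2L1 (-1.21), CD74 (-0.92), DENND10 (-0.87), ABLIM1 (-0.70), BMF (-0.70), PECAM1 (-0.61), GPR183 (-0.61), BACH2 (-0.57), CCL22 (-0.57), IL7R (-0.56) and HLA-DRA (-0.43). They passed in 1 to 11 of the 12 fits.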

How the results depend on the processing

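Without background correction 510 genes were higher and 481 lower over both times (578 and 610 at 8 h, 513 and 445 at 24 h). With the authors' deposited log2 values these counts were 461 and 432 (530 and 559, 455 and 387). The NF-kB list then had 6 higher and 1 lower and the interferon list 1 higher and 8 lower. Median scaling gave 3416 higher and 391 lower (3754 and 438, 3136 and 373), with 6 and 54 genes for the change between times. Testing only genes detected on all 12 arrays left 443 and 577 (583 and 706, 413 and 526). Fewer genes were tested, and the called share over both times was also lower, at 14.1% against 20.9%. Array weights left the line counts within 1.5 times but gave 1565 and 1719 for the change between times. The difference in detected probes fell from 671.3 to 309.7 at a detection p under 0.05. For ERAP2 and FOXP1 the probe of largest variance read -2.127 and -1.007, opposite to the brightest probe. Of the 198 named genes, calls were lost for 39 with the deposited log2 values (1 gained), 30 without background correction, 25 under median scaling (17 gained), 13 with offset 50, 4 with array weights (1 gained), 2 with all 24 arrays (5 gained) and 1 with the probe of largest variance (4 gained). The cause of these changes was not tested.

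With each array left out in turn, 997 to 1037 genes were higher and 962 to 1012 lower over both times, 1151 to 1273 and 1104 to 1164 at 8 h, and 938 to 1027 and 897 to 952 at 24 h. The change between times ranged from 138 to 1337 and from 95 to 1155. Of the named genes, 7 lost the call without at least 1 array: BAK1 (log2 difference 0.9591) and E2F2 (-0.9733) without OCI-Ly7 24 h replicate 1, PIM1 without that array (0.9628) or OCI-Ly7 8 h replicate 3 (0.9966), CD22 without OCI-Ly7 24 h replicate 3 (-0.8313), 8 h replicate 3 (-0.9364) or U2932 8 h replicate 3 (-0.9766), CREBBP without OCI-Ly7 8 h replicate 1 (-0.9913) or 2 (-0.9752) or U2932 8 h replicate 3 (-0.9986), BANK1 without U2932 8 h replicate 1 (0.9653) or 24 h replicate 3 (0.9778), and RNA28SN5 without OCI-Ly7 8 h replicate 1 (0.8737) or 2 (0.988), 24 h replicate 1 (0.9144) or U2932 24 h replicate 1 (0.9698). The call was gained by 4 genes given as not called: BCL2L1 without OCI-Ly7 24 h replicate 3 (1.108), 8 h replicate 3 (1.075) or U2932 8 h replicate 3 (1.019), R3HDM1 without OCI-Ly7 24 h replicate 1 (-1.034) or U2932 24 h or 8 h replicate 1 (-1.006, -1.04), JCHAIN without OCI-Ly7 8 h replicate 3 (-1.022), and MDM2 without OCI-Ly7 24 h replicate 3 (-1.002). No pairing by replicate number was seen, though the few pairs cannot exclude one. With the replicate block 1991 genes were called, all of them shared with the fit without it. Probes near the background limit the size of a difference, since their signal over background is small.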
